A study of Mus musculus with 36 samples.

Results

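The transcripts of 10 genes of neutrophil granules and myeloid cells were described in mouse liver: Ngp, Camp and Ltf of the specific granules, Mpo and Elane of the azurophil granules, the cytosolic S100a8 and S100a9, the secreted Retnlg, the receptor gene Csf3r and the chitinase-like Chil3. They were chosen by symbol, and all 10 were among the 49315 genes of the deposited table. The mice carried LXRalpha, the liver X receptor that responds to oxysterols, with tryptophan at residue 441 on both alleles (W/W), with phenylalanine in its place on 1 allele (W/F) or with phenylalanine on both alleles (F/F). All were male and 11 to 12 weeks old, and the change was made with CRISPR, with no restriction to a cell type named. Mice of each genotype ate chow, a MASH-promoting diet (Teklad) for 4 weeks with vehicle, or that diet with the LXR agonist T0901317 at 10 mg/kg by daily gavage in the last 2 weeks. Each of the 9 groups held 4 mice. The chow mice were an independent cohort, so diet and cohort cannot be told apart.

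Neutrophils pack their proteins into granules that are filled in order while the cell matures in the bone marrow. Azurophil granules with myeloperoxidase and elastase come first, specific granules with lactoferrin and cathelicidin follow, gelatinase granules come later, and the cytosolic S100 proteins and surface receptors mark the late stages. The transcripts of granule proteins largely fade before a neutrophil enters the blood, whereas S100a8, S100a9 and Csf3r are kept. In a liver with steatohepatitis, neutrophils enter with monocytes, and S100a8, S100a9, Csf3r and Chil3 are also made by some monocytes and macrophages.

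The upstream sequences of 5 members are shown because the genes moved apart in the comparisons below: Ngp and Ltf were higher in F/F than in W/F mice on vehicle, Csf3r was not called there, S100a8 lay between, and Elane had a pattern of its own. Each line gives the 250 bases before the RefSeq start (GRCm38.p6, plus strand, 5′ to 3′). Capitals mark TTNNGCAA, a site form of C/EBP factors, which drive specific granule genes, and GAGGAA, the core bound by the myeloid factor PU.1, each on either strand.
Ngp: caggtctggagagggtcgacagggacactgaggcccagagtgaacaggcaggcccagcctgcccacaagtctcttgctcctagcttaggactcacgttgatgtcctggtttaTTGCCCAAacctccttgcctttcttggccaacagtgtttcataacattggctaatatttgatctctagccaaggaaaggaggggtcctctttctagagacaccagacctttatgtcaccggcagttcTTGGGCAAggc
Ltf: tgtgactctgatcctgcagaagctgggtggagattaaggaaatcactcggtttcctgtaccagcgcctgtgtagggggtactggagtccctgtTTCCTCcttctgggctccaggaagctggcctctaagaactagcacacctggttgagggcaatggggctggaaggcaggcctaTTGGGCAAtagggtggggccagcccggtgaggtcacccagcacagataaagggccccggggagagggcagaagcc
S100a8: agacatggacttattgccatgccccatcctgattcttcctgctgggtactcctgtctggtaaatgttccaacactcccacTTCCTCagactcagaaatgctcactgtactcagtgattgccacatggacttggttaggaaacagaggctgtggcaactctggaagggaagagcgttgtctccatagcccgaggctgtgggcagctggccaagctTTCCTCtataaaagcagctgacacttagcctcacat
Csf3r: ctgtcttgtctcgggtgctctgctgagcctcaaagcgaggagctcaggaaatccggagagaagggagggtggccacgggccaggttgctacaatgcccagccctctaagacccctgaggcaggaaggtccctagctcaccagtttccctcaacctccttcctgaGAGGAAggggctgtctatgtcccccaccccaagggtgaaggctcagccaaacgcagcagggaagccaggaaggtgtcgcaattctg
Elane: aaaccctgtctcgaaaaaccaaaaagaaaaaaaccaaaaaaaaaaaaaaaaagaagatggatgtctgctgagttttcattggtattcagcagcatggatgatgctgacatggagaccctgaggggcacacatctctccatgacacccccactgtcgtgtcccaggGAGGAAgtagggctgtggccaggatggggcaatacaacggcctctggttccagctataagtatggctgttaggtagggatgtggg
These windows lie at chr9:110419558-110419807 for Ngp, chr9:111019042-111019291 for Ltf, chr3:90668821-90669070 for S100a8, chr4:126024409-126024658 for Csf3r and chr10:79886062-79886311 for Elane. The search used 300 bases, from 250 before to 50 after the start. TTNNGCAA was found for 4 of 10 members (Ngp with 2 matches, Ltf, S100a9 and Retnlg) and in 10.8% of 32851 RefSeq windows of that length. GAGGAA was found for 5 of 10 (Ltf, S100a8, Mpo, Elane and Csf3r) and in 28.3% of windows. The DR4 element bound by LXR with its partner RXR, a direct repeat of AGGTCA with 4 bases between, was in 0 of 10 members and in 0.015% of windows. No 2 matches overlap in the printed windows, and a match is a string of letters, not a measured site. Camp, also higher in F/F than in W/F on vehicle (2.04 on the log2 scale), matched neither TTNNGCAA nor GAGGAA. No link of matches to the comparisons was tested.

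By position, 3 members lie on chromosome 9 (GRCm38): Camp at 109847379 to 109849617 on the minus strand, Ngp at 110419747 to 110423012 and Ltf at 111019271 to 111042767 on the plus strand. S100a8 (90668978 to 90670035) and S100a9 (90692632 to 90695721, minus strand) are neighbours on chromosome 3, which also holds Chil3 (106147554 to 106167564, minus strand). Mpo (87793581 to 87804413) is on chromosome 11, Elane (79886247 to 79888215) on 10, Retnlg (48872621 to 48874496) on 16 and Csf3r (126024550 to 126044440) on 4. Shared sequence bears on the counts of 3 members. Of the 50-base words in Chil3 exons, 26.9% also occur in Chil4 or Gm6522, and Chil4 was at 0.0542 TPM or less in all mice. Mpo overlaps Gm11505, with 9.46% shared words, and Csf3r shared 10.7%. Such reads are uncertain where a counter could split them.

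Recovered depth was 18.1 to 35.6 M reads per library (M, 1000000), and 1 read was worth 0.0300 TPM for Csf3r and 0.207 TPM for S100a9 at the median library. Hepatocyte markers (Alb and 5 others) summed to 32743 to 98676 TPM in every library, which fits the liver label, and Nr1h3, the gene of LXRalpha, had group means of 86.8 to 108 TPM, although a TPM table cannot read residue 441. Replicate 2 of W/W on chow and replicate 2 of W/F on T0901317 stood apart for several of these genes. Of the 10 members, 9 passed the filter of 1 TPM in 4 libraries, and Mpo, which reached 1 TPM in 3 libraries, did not. Ltf passed only through the F/F vehicle mice, so its part in a count of F/F vehicle calls was fixed by the filter. TPM is per length, so levels can be set beside each other between genes.

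In W/W mice the members were low under all 3 conditions, and Camp, Ltf, Mpo, Retnlg and Chil3 had 3 reads or fewer in most libraries. Ngp, a cystatin-related protein of specific granules, was at 0.338, 0.166, 0.330 and 0.402 TPM on vehicle, from 2 to 5 reads per library. S100a9, which pairs with S100a8 in calprotectin, was at 1.58, 2.52, 1.16 and 3.76 TPM in the same mice. Csf3r, the receptor for granulocyte colony-stimulating factor, had means of 1.15 ± 0.657, 1.71 ± 1.03 and 1.47 ± 0.585 TPM (SD, n = 4) on chow, vehicle and T0901317. On chow, replicate 2 alone had 3.67 TPM of Ngp, against 0 to 0.350 in the other mice, and 8.74 TPM of S100a8, against 0 to 0.864. With limma, 0 of 9 members were called for diet in W/W (12.9% of all genes tested were called) and 0 of 9 for T0901317 in W/W (10.8%). At an unadjusted p under 0.05 both counts were also 0, and voom on recovered reads gave 0 and 0.

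**Figure D1:**
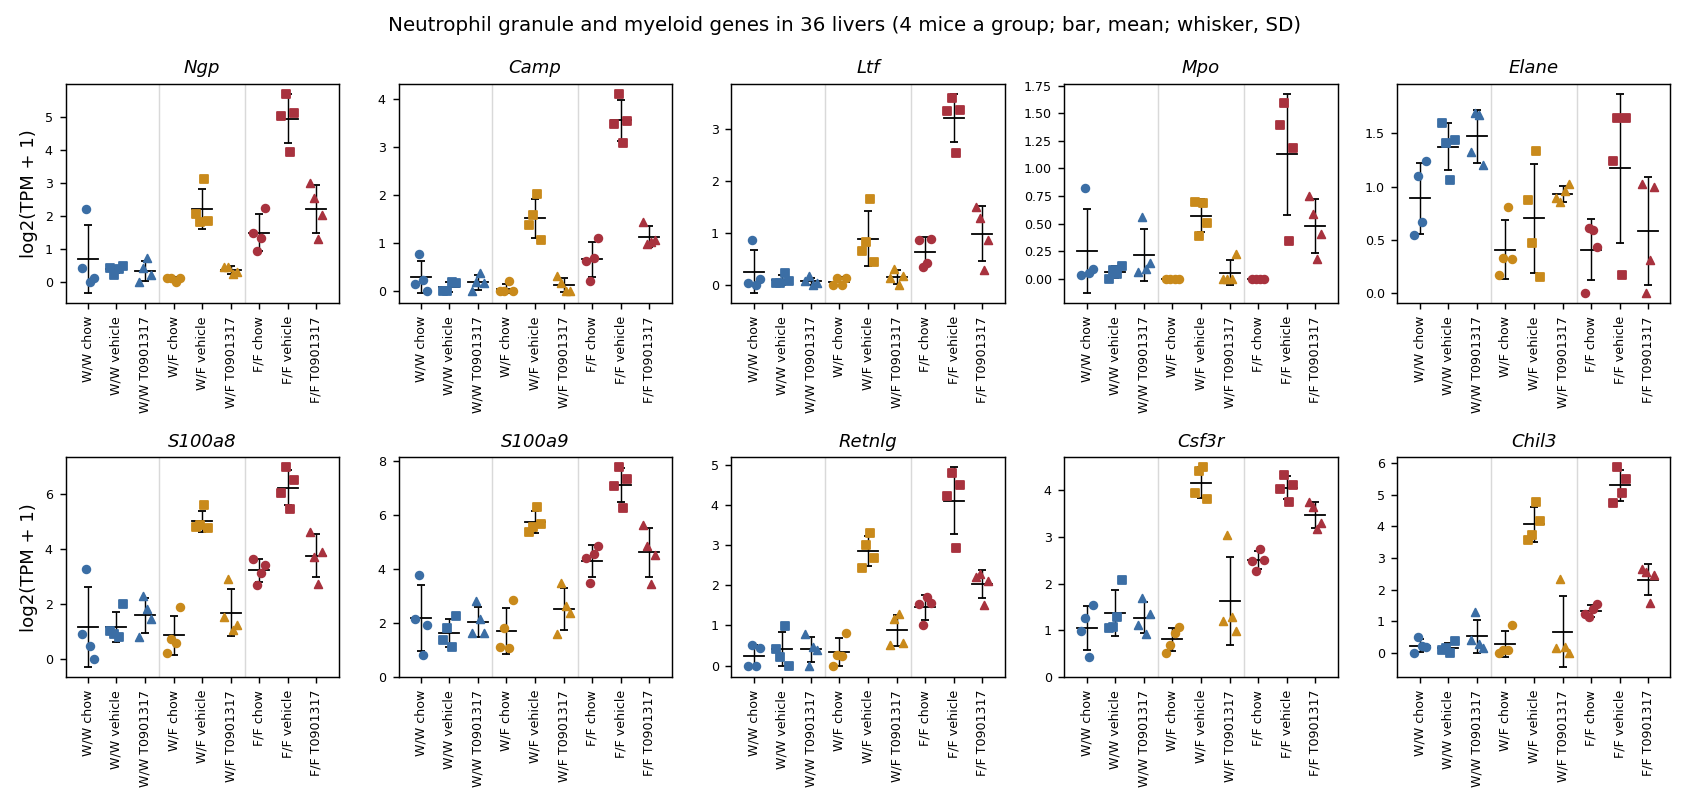
Log2(TPM + 1) of the 10 members (y axis) in each of 36 mice, by genotype and treatment (x axis); points are mice, bars means and whiskers SD. All members had means of 4.98 TPM or less in W/W, and in all of them except Elane and Csf3r the F/F vehicle group had the highest mean (Ngp 32.6 TPM).

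On the MASH diet with vehicle, W/F and F/F livers had far more of these transcripts than W/W livers. In bulk tissue, a change in the number of cells of a type and a change in RNA per cell cannot be told apart. For W/F against W/W, 8 of 9 members were higher and Elane was lower, where 68.5% of all genes were called (61.6% higher, 6.83% lower). In F/F against W/W, 8 of 9 were higher and 0 lower, where 76.5% of all genes were called (69.3% higher) and the median gene differed by 0.70 on the log2 scale. Rescaling by the median ratio brought the median gene to 0.04 and the calls over all genes from 11538 higher and 1186 lower to 5208 and 4601. With so many genes called, the counts alone are no result about the members, so the sizes are given.

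S100a8 and S100a9 had the highest levels. S100a8 was at 27.2, 28.6, 47.4 and 26.6 TPM in W/F vehicle mice and at 64.6, 125, 43.1 and 90.2 TPM in F/F vehicle mice, against 1.04, 0.875, 0.726 and 2.97 TPM in W/W. S100a9 was at 40.4, 46.4, 78.4 and 49.4 TPM in W/F and at 135, 219, 76.2 and 159 TPM in F/F. All mice of both mutant groups lay above all W/W mice. How many of all genes did so was not counted, and 69.3% were called higher in F/F and 61.6% in W/F. The log2 difference of S100a8 from W/W was 3.84 ± 0.52 (SE; adjusted p = 1.7e-07) in W/F and 5.07 ± 0.52 (adjusted p = 4.5e-10) in F/F. That of S100a9 was 4.09 and 5.48.

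Chil3, which encodes the chitinase-like Ym1, was at 10.8, 12.4, 26.4 and 17.2 TPM in W/F and at 26.1, 57.5, 32.6 and 43.9 TPM in F/F on vehicle, while no W/W vehicle mouse exceeded 0.301 TPM. Retnlg, a resistin-like secreted protein of neutrophils, was at 4.39, 6.96, 8.80 and 5.4 TPM in W/F and at 17.6, 26.7, 6.57 and 21.8 TPM in F/F. Csf3r was at 14.3, 20.1, 21.5 and 13.1 TPM in W/F and at 15.2, 19.1, 12.4 and 16.3 TPM in F/F. For Csf3r the 2 mutant groups overlapped, and each stood above W/W, whose highest mouse was at 3.24 TPM. The share of all genes that stood above W/W in this way was not counted. The log2 difference of Csf3r from W/W was 2.79 ± 0.30 (adjusted p = 3.7e-09) in W/F and 2.68 ± 0.30 (adjusted p = 3.5e-09) in F/F.

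The specific granule genes Ngp, Camp and Ltf had the largest differences between the 2 mutant genotypes. Ngp was at 3.19, 2.5, 7.61 and 2.60 TPM in W/F vehicle mice and at 31.5, 50.9, 14.2 and 33.9 TPM in F/F vehicle mice. Camp, the cathelicidin antimicrobial peptide precursor, was at 1.61, 2.02, 3.07 and 1.08 TPM in W/F and at 10.2, 16.4, 7.52 and 10.6 TPM in F/F. Ltf, the iron-binding lactoferrin, was at 0.575, 0.784, 2.16 and 0.357 TPM in W/F and at 9.16, 11.2, 4.79 and 9.36 TPM in F/F. For Ngp, Camp and Ltf every F/F mouse lay above every W/F mouse, which held for 3 of 9 members and for 24.4% of all genes tested, a share near that of the members, while the other 6 tested members overlapped. Ltf was among the genes tested only through these F/F mice. The mean was 8.20 times higher in F/F for Ngp, 5.75 times for Camp and 8.90 times for Ltf, whereas the ratio was 2.49 for S100a8, 2.75 for S100a9, 2.84 for Retnlg, 2.40 for Chil3 and 0.914 for Csf3r.

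In the test of F/F against W/F on vehicle, 6 of 9 members were higher and 0 lower, where 21.3% of all genes were called (19% higher) and the median gene differed by 0.18. After rescaling, the calls over all genes went from 3169 higher and 383 lower to 981 and 777. The log2 difference was 2.73 ± 0.39 for Ngp (adjusted p = 1.1e-05) and 2.04 ± 0.20 for Camp (adjusted p = 1.5e-08). That of Ltf was 2.32 ± 0.24 (adjusted p = 6.3e-08). Ltf passed the filter only through the F/F vehicle mice, so its call and its part in the count are not independent of the filter. Retnlg (1.26, adjusted p = 0.0029), Chil3 (1.23, adjusted p = 0.015) and S100a9 (1.39, adjusted p = 0.046) were called as well. S100a8 (1.22 ± 0.52, adjusted p = 0.090), Elane (0.47, adjusted p = 0.22) and Csf3r (−0.11 ± 0.30, adjusted p = 0.84) were not. With a pseudocount of 0.1 the calls of Retnlg, Chil3 and S100a9 were lost and 3 of 9 remained. The S100a9 call was also lost on rescaled TPM (adjusted p = 0.12) and the Chil3 call there too (adjusted p = 0.069), and both were lost without F/F replicate 2 (1.17, adjusted p = 0.14, and 1.04, adjusted p = 0.061) and without W/F replicate 1 (1.27, adjusted p = 0.10, and 1.06, adjusted p = 0.052). The S100a9 call was lost as well without F/F replicate 1 or 4 or W/F replicate 2 or 4 (adjusted p = 0.080 to 0.097), whereas S100a8 was called when these 2 groups were fitted alone (adjusted p = 0.028) and with voom (adjusted p = 0.0034).

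**Figure D2:**
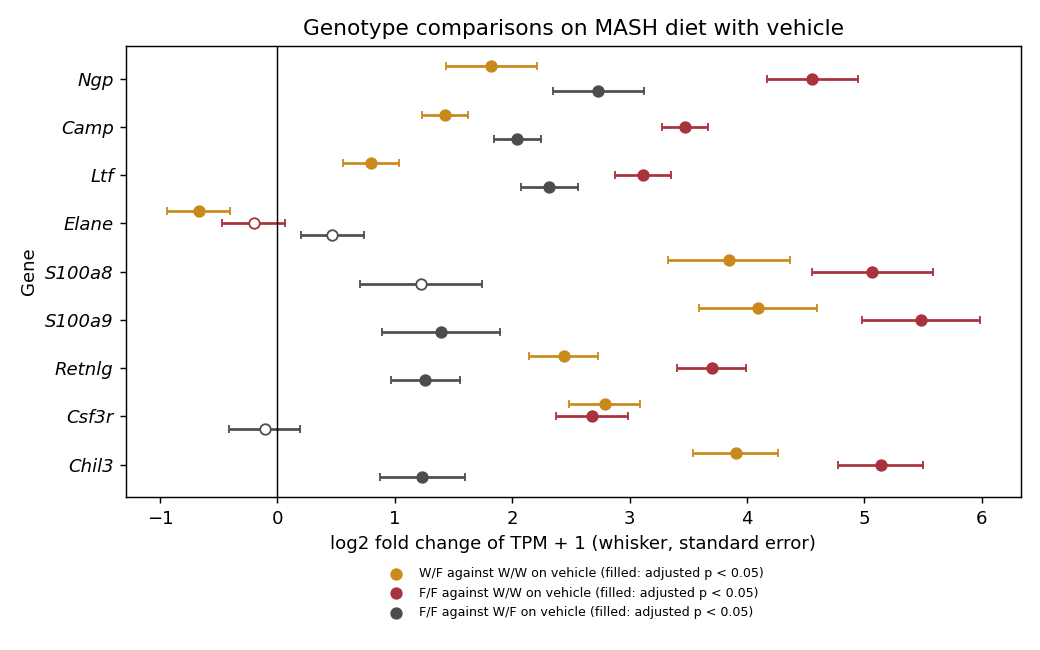
Log2 fold change of TPM + 1 (x axis; whisker, standard error) of the 9 members tested (y axis) between genotypes on MASH diet with vehicle; filled points passed the adjusted threshold of 0.05. For F/F against W/F, Ngp (2.73), Ltf (2.32) and Camp (2.04) lay farthest right, and Csf3r lay at −0.11. Ltf passed the filter only through the F/F vehicle mice.

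The members were also set against Csf3r in the same mouse. The ratio of Ngp to Csf3r TPM had a median of 0.211 (0.124 to 0.355) in W/F vehicle mice and 2.08 (1.15 to 2.66) in F/F vehicle mice. It was 0.332 (0.237 to 0.795) in F/F mice on chow and 0.384 (0.187 to 0.564) in F/F mice on T0901317. The F/F vehicle mice had the higher ratio in all 4 mice, with no overlap with those 3 groups. Camp and Ltf per Csf3r also had no overlap between the mutant vehicle groups, with medians of 0.107 and 0.0396 in W/F and 0.663 and 0.580 in F/F. S100a8 (1.97 and 4.89), Retnlg (0.378 and 1.25) and Chil3 (0.990 and 2.67) per Csf3r had smaller gaps, again without overlap. The same genes overlapped between the mutant vehicle groups in TPM itself. Csf3r differed by −0.11 on the log2 scale between F/F and W/F there, where the median gene differed by 0.18, so division by Csf3r moves any gene toward F/F. How many of all genes would separate per Csf3r was not counted. The ratio of S100a9 to S100a8, whose products form a dimer, varied less, from 1.49 to 2.86 over the 16 mice of these 4 groups.

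**Figure D3:**
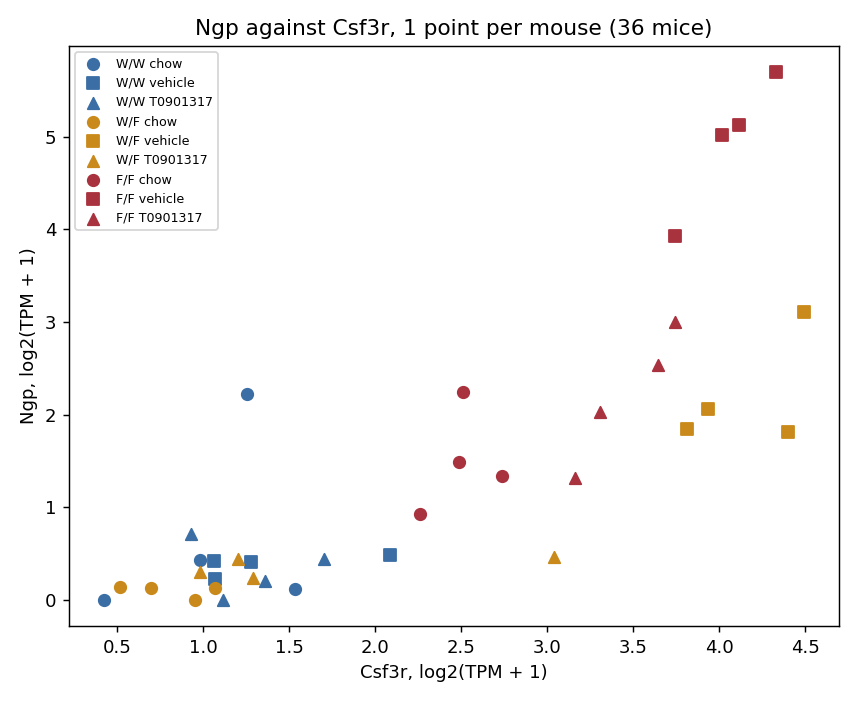
Log2(TPM + 1) of Ngp (y axis) against Csf3r (x axis) in 36 mice, colour for genotype and shape for treatment. W/F and F/F vehicle mice overlapped for Csf3r (13.1 to 21.5 and 12.4 to 19.1 TPM), and all 4 F/F mice lay above the W/F mice for Ngp.

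Camp, Ngp and Ltf lie within chromosome 9 from 109847379 to 111042767. Of the 25 other genes tested in that stretch, 3 were higher in F/F than in W/F on vehicle and 0 lower, with differences from −0.54 to 1.08 and a median of 0.25 on the log2 scale. Over all genes, 19% were called higher there, and the difference was not tested.

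On chow, W/F mice did not differ detectably from W/W mice: limma called 0 of 9 members (0.487% of all genes), with 0 at an unadjusted p under 0.05 and 0 by voom. F/F mice already had more of several members. S100a8 was at 11.6, 5.46, 7.88 and 9.69 TPM in F/F chow mice and at 0.173, 0.679, 0.501 and 2.69 TPM in W/F chow mice. Csf3r was at 4.60, 3.80, 5.67 and 4.69 TPM in F/F and at 0.432, 0.621, 0.931 and 1.10 TPM in W/F. Neither gene overlapped between these groups, and how many of all genes separated so was not counted. S100a8 did overlap between F/F and W/W mice on chow.

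Compared with W/W on chow, F/F mice had 5 of 9 members higher and 0 lower, a share near that of all genes (46.7% called, 43% higher): Csf3r (1.45, adjusted p = 0.00033), S100a9 (2.13, adjusted p = 0.0010), Retnlg (1.22, adjusted p = 0.0013), S100a8 (2.06, adjusted p = 0.0019) and Chil3 (1.11, adjusted p = 0.013). The specific granule genes were not called, with 0.81 ± 0.39 for Ngp (adjusted p = 0.086), 0.37 for Camp and 0.37 for Ltf. These depended on the setting: Ngp was called with a pseudocount of 0.1 (2.14, adjusted p = 0.015), voom (2.44, adjusted p = 0.048) and array weights (0.97, adjusted p = 0.027), Ltf with that pseudocount (1.51, adjusted p = 0.038) and voom (2.55, adjusted p = 0.037), and Camp with array weights (0.52, adjusted p = 0.021). Ngp in F/F chow mice was at 1.82, 0.901, 1.52 and 3.73 TPM, and replicate 2 of W/W lay within that range. The called S100a8 and S100a9 also overlapped between F/F and W/W on chow, where replicate 2 of W/W was at 8.74 and 12.9 TPM. Without that mouse Ngp (1.32, adjusted p = 0.0030) and Camp (0.53, adjusted p = 0.036) were called higher in F/F, and likewise without F/F chow replicate 2 (1.00, adjusted p = 0.045, and 0.52, adjusted p = 0.035). Compared with W/F on chow, 7 of 9 were higher in F/F and 0 lower (41.4% of all genes called, 37.9% higher), among them Ngp (1.40, adjusted p = 0.0046) and Camp (0.61, adjusted p = 0.014), with Ltf at 0.57 (adjusted p = 0.058). Ltf was called with a pseudocount of 0.1 (2.13, adjusted p = 0.0052), voom (3.53, adjusted p = 0.011), array weights (adjusted p = 0.045), only the groups compared (adjusted p = 0.019) and without F/F chow replicate 2 (adjusted p = 0.040). Camp and Chil3 lost their calls without F/F chow replicate 4 (0.46, adjusted p = 0.084, and 0.99, adjusted p = 0.056), and Chil3 also without W/F chow replicate 1 (0.97, adjusted p = 0.056) and on rescaled TPM (0.92, adjusted p = 0.054).

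The diet was accompanied by higher members in both mutant genotypes. In W/F 8 of 9 rose from chow to diet with vehicle and 0 fell, where 61% of all genes were called (52.4% higher). On log2(TPM + 1) the largest were S100a8 (4.16 ± 0.52), S100a9 (4.02), Chil3 (3.79) and Csf3r (3.35 ± 0.30). This scale understates genes low on chow. Mean TPM in W/F went from 1.01 to 32.5 for S100a8, from 0.250 to 16.7 for Chil3, from 0.0725 to 3.98 for Ngp and from 0.0382 to 1.945 for Camp. In F/F 9 of 9 rose (55.8% of all genes called, 46.5% higher). The largest on log2(TPM + 1) were Chil3 (3.97), Ngp (3.44 ± 0.39), S100a8 (3.02) and Camp (2.90 ± 0.20), with Csf3r at 1.55 ± 0.30. Elane was the weakest of the 9 in F/F on that scale (0.76, adjusted p = 0.017). Its call was lost without F/F chow replicate 1, F/F vehicle replicate 2 or F/F vehicle replicate 4 (0.63, 0.61 and 0.61, adjusted p = 0.069 to 0.077) and on rescaled TPM (0.55, adjusted p = 0.066). Tests of the difference in diet response from W/W called 8 of 9 members higher in W/F (54.6% of all genes called, 49.5% higher) and 8 of 9 higher in F/F (46% called, 41.5% higher), with Elane uncalled in both. The call of Csf3r in F/F minus W/W (1.23, adjusted p = 0.021) was lost on rescaled TPM (0.79, adjusted p = 0.16), with voom (1.03, adjusted p = 0.20), with a pseudocount of 0.1 (1.13, adjusted p = 0.14) and without W/W chow replicate 4 (1.07, adjusted p = 0.051). In the same contrast S100a8 lost its call with voom (2.18, adjusted p = 0.17) and the pseudocount of 0.1 (2.46, adjusted p = 0.087), and Retnlg with voom (2.43, adjusted p = 0.084). In W/F minus W/W, Ltf lost its call without W/F vehicle replicate 3 (0.73, adjusted p = 0.053).

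T0901317 was accompanied by lower members in both mutant genotypes. In W/F livers 8 of 9 members fell (65.9% of all genes called, 59.3% lower), with Chil3 at −3.39 ± 0.36, S100a8 at −3.33 ± 0.52, Csf3r at −2.53 ± 0.30, Ngp at −1.85 ± 0.39 and Ltf at −0.74 ± 0.24 on the log2 scale. The call of Ltf rested on W/F vehicle replicate 3 (−0.48, adjusted p = 0.071, without it). Elane was at 0.23 (adjusted p = 0.47). With T0901317, W/F mice did not differ detectably from W/W mice, as limma called 0 of 9 members (9.88% of all genes), with 0 at an unadjusted p under 0.05 and 0 by voom. Chil3 in W/F T0901317 mice was at 0.108, 4.11, 0.133 and 0 TPM and Csf3r at 1.30, 7.22, 1.44 and 0.975 TPM, so replicate 2 stood above the other 3 mice. Ngp in the same mice was at 0.362, 0.381, 0.177 and 0.233 TPM, and there replicate 2 did not stand apart. The macrophage markers Adgre1, Csf1r, Cd68, Mpeg1 and C1qa summed to 615 TPM in the highest mouse of that group, with a group median of 139, and their part in the result was not tested.

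In F/F livers T0901317 came with a fall of 7 of 9 members (35.1% of all genes called, 31.2% lower), and the levels remained above those of the other genotypes on the agonist for 8 of 9. Ngp was at 6.99, 4.81, 1.48 and 3.09 TPM, Camp at 1.73, 0.970, 1.05 and 1.09 TPM and S100a8 at 24.0, 12.2, 5.71 and 14.1 TPM. These ranges lay below those of F/F vehicle mice without overlap, which was not counted over all genes. The log2 change was −2.98 ± 0.36 for Chil3, −2.72 ± 0.39 for Ngp, −2.49 ± 0.52 for S100a8, −2.43 ± 0.20 for Camp and −2.22 ± 0.24 for Ltf, and mean Ngp was 7.96 times higher on vehicle. Csf3r, at 12.4, 11.5, 7.94 and 8.88 TPM, overlapped the vehicle range by 1 mouse (12.394 against 12.387 TPM) and was not called (−0.59 ± 0.30, adjusted p = 0.13), although it was when the 2 groups were fitted alone (adjusted p = 0.031). Elane was not called either (−0.59, adjusted p = 0.086), but was without F/F vehicle replicate 3 (−0.93, adjusted p = 0.0070) or F/F T0901317 replicate 1 (−0.74, adjusted p = 0.044).

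Under T0901317, F/F mice had 8 of 9 members higher than W/W and 1 lower (63.2% of all genes called, 56.3% higher, 6.96% lower), and 8 of 9 higher than W/F and 0 lower (62.6% called, 58.5% higher). Csf3r differed from W/W by 2.19 ± 0.30 (adjusted p = 5.0e-07), S100a9 by 2.56 ± 0.50 (adjusted p = 6.7e-05) and Ngp by 1.88 ± 0.39 (adjusted p = 0.00011). The 1 lower member was Elane (−0.89 ± 0.27, adjusted p = 0.0053).

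The responses to T0901317 were also compared between genotypes. Against the response in W/W, 7 of 9 members fell more in F/F (30.4% of all genes called, 27.2% lower) and 7 of 9 in W/F (58.5% called, 53.2% lower). With voom 3 of the 7 in F/F were still called, and Ngp (−1.96, adjusted p = 0.30), Ltf (−2.54, adjusted p = 0.18), Retnlg (−2.36, adjusted p = 0.10) and S100a8 (−2.89, adjusted p = 0.058) were not. Ngp and Retnlg also lost their calls there with a pseudocount of 0.1 (adjusted p = 0.051 and 0.060), and Ngp lost its call in W/F with voom (−2.35, adjusted p = 0.20). Between F/F and W/F, 3 of 9 were called (19.2% of all genes, 17.6% higher and 1.61% lower). Csf3r fell less in F/F (difference 1.94 ± 0.43, adjusted p = 0.0027). On log2(TPM + 1), Ltf (−1.49 ± 0.34, adjusted p = 0.0034) and Camp (−1.03 ± 0.28, adjusted p = 0.011) fell more in F/F. Mean TPM of Camp was 21.8 times higher on vehicle than on T0901317 in W/F and 9.25 times in F/F. For Ltf it was 8.02 and 7.96 times higher. Camp had 0 to 2 reads per library in W/F T0901317 mice. The calls of Ltf and Camp depended on the scale. With a pseudocount of 0.1 Ltf was at −0.96 (adjusted p = 0.44) and Camp turned to 0.45 (adjusted p = 0.71), and with voom Ltf was at −0.25 (adjusted p = 0.89), while the Csf3r call was kept in all alternatives. These 3 tests share the vehicle mice with the vehicle comparisons above.

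The azurophil genes Mpo and Elane were low everywhere and differed from each other in their order. Mpo, which makes hypochlorous acid, was at 1.63, 2.02, 0.267 and 1.27 TPM in F/F vehicle mice and at 0.624, 0.309, 0.611 and 0.420 TPM in W/F vehicle mice. It was listed at 0 in all 4 mice of W/F on chow and all 4 of F/F on chow, where 3 reads would have been worth 0.0640 to 0.120 TPM over the libraries. Without the filter on low values Mpo differed between F/F and W/W on vehicle by 1.07 ± 0.18 (adjusted p = 7.2e-06), where 46.9% of 32923 genes were called, and fell with T0901317 in F/F by 0.65 (adjusted p = 0.011; 18.7% of genes called).

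Elane, neutrophil elastase, had its highest mean in W/W under each treatment. It was at 2.02, 1.65, 1.09 and 1.71 TPM in W/W vehicle mice, from 11 to 19 reads each, at 0.830, 0.384, 1.52 and 0.112 TPM in W/F vehicle mice and at 1.36, 2.13, 0.124 and 2.14 TPM in F/F vehicle mice. The 3 groups overlapped. W/F was called lower than W/W (−0.67 ± 0.27, adjusted p = 0.029), a call lost without any of 5 single mice, with the pseudocount of 0.1 (adjusted p = 0.075) and without the filter (adjusted p = 0.054). F/F against W/W was at −0.20 (adjusted p = 0.51) and was called lower on rescaled TPM (−0.67, adjusted p = 0.019).

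Elane lies between Prtn3, another azurophil protease gene whose end is 3073 bases to its left, and Cfd, the complement factor D gene 2638 bases to its right. Cfd had means of 292 ± 129 TPM in W/W vehicle, 146 ± 73.6 in W/F T0901317 and 82.8 ± 25.3 in W/W T0901317 mice (SD, n = 4), and at most 5.26 in the other groups. These 3 groups were among the 4 with the highest mean of Elane. Over the 36 mice, which differ in group, the Pearson correlation of Elane with Cfd was 0.43, and −0.27 after the group means were subtracted. The values for Prtn3 were 0.13 and 0.10. Whether reads of Cfd bear on the Elane value was not tested.

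**Figure D4:**
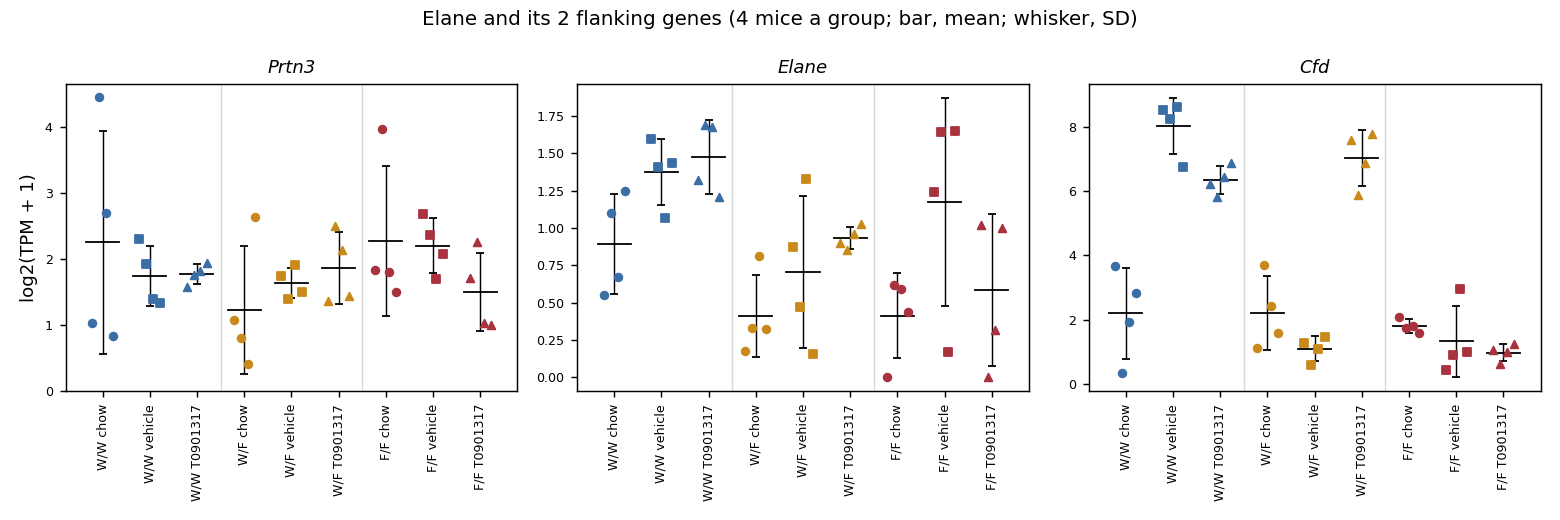
Log2(TPM + 1) (y axis) of Prtn3, Elane and Cfd by genotype and treatment (x axis); points are mice, bars means and whiskers SD. Cfd was high in 3 groups (means 292, 146 and 82.8 TPM), and Elane had means of 1.62, 0.912 and 1.81 TPM there.

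The order of the group means was alike for most members. For Ngp it ran from F/F vehicle (32.6 ± 15.01 TPM; SD, n = 4) through F/F T0901317 (4.09 ± 2.36), W/F vehicle (3.98 ± 2.44) and F/F chow (1.99 ± 1.22) to the remaining 5 groups, at 1.03 or less, and after the first step no neighbours differed beyond their SD. For Csf3r it ran from W/F vehicle (17.2 ± 4.17) through F/F vehicle (15.7 ± 2.78), F/F T0901317 (10.2 ± 2.10) and F/F chow (4.69 ± 0.769) to W/F T0901317 (2.73 ± 3.00) and the rest, where the first 2 did not differ beyond their SD. Chil3 ran from F/F vehicle (40.03 ± 13.8) through W/F vehicle (16.7 ± 7.01) and F/F T0901317 (4.19 ± 1.48) to F/F chow (1.53 ± 0.321), each differing from the next beyond the SDs, and then to W/F T0901317 (1.09 ± 2.01), which did not. Elane ran from 1.81 ± 0.474 in W/W T0901317 to 0.348 ± 0.245 in F/F chow, and no neighbours in that order differed beyond their SD.

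Within groups the members varied together to different degrees. After group means were subtracted, the Pearson correlations over 36 libraries for the 28 pairs without Elane had a median of 0.61 (0.33 to 0.89), and the 8 pairs with Elane had a median of 0.39. The 5 genes most like Ngp were Ltf (0.89), Camp (0.82), S100a8 (0.78), S100a9 (0.76) and Arhgap22 (0.71). Those most like S100a8 were S100a9 (0.86), Ngp (0.78), Cyp4f16 (0.78), Heg1 (0.73) and Rasgef1b (0.73). Those most like Chil3 were Lgmn (0.90), Sdc3 (0.89), Nrros (0.87), Lrrc25 (0.87) and Emilin2 (0.87), none of them a member. Without the 2 libraries that stood apart, Ltf (0.89) and Camp (0.80) stayed first for Ngp, Lgmn was at 0.83 for Chil3, and Rasgef1b dropped to 0.55 for S100a8. The points share library, depth and preparation, and these correlations are descriptions.

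Other genes of the same cells are given by lists. The list of 8 specific and gelatinase granule genes, 4 of them members, had Lcn2, Chil3 and Ngp as its most abundant. On that list, 8 of 8 were higher in F/F than in W/W on vehicle (69.3% of all genes), with a median log2 difference of 3.29, beside 0.70 for all genes. In W/F 8 of 8 were higher than in W/W (61.6% of all genes, median 1.48, all genes 0.52). In F/F against W/F on vehicle 7 of 8 were higher (median 1.20, all genes 0.18, with 19% of them higher), among them Ltf, which passed the filter only through the F/F vehicle mice. The exception was Lcn2, lipocalin 2, which hepatocytes also make, with means of 2060 ± 239 TPM in F/F and 1527 ± 450 in W/F (0.47, adjusted p = 0.79). The collagenase Mmp8 (1.16, adjusted p = 0.00017), the gelatinase Mmp9 (1.03, adjusted p = 7.6e-05) and the surface protein Cd177 (0.88, adjusted p = 6.2e-05) were called there, and none of these 3 is a member. With T0901317, 8 of 8 fell in W/F livers (median −1.44, with 59.3% of all genes lower) and 7 of 8 fell in F/F livers (median −2.05, with 31.2% lower). Of 6 azurophil genes, 2 were tested (Prtn3 and Elane), neither called in F/F against W/F on vehicle (adjusted p = 0.51 and 0.22), while Ctsg, Ms4a3 and Prss57 stayed too low to test (Ctsg at most 1.15 TPM).

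Of 12 genes of mature neutrophils, 4 of them members, 11 were tested, and S100a9, S100a8 and Hdc had the highest means. On vehicle 10 of 11 were higher in F/F than in W/W (median 1.35, all genes 0.70, with 69.3% of them higher). In W/F 9 of 11 were higher than in W/W (median 0.89, all genes 0.52, with 61.6% higher), and 5 of 11 were higher in F/F than in W/F (median 0.46, all genes 0.18, with 19% higher). Ly6g, the surface marker that defines mouse neutrophils, was at 1.57, 1.96, 1.69 and 1.10 TPM in F/F vehicle mice and at 0.162, 0.374, 0.247 and 0.109 TPM in W/F vehicle mice, without overlap (1.07, adjusted p = 1.0e-06). All 4 F/F mice lay above all 4 W/F mice for 24.4% of all genes tested. The F/F vehicle mice alone were enough for the filter of 1 TPM in 4 libraries, so for Ly6g the filter and this test may not be independent. Cxcr2, the receptor for neutrophil chemokines, was at 0.46 (adjusted p = 0.052). On rescaled TPM 2 of the 11 were higher in F/F than in W/F, beside 981 of all 16638 genes. With T0901317, 9 of 11 fell in W/F livers (59.3% of all genes) and 8 of 11 fell in F/F livers (31.2% of all genes).

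The 6 NADPH oxidase genes make the phagocyte oxidative burst and are shared with macrophages. Like Csf3r, they were called against W/W on vehicle but not between F/F and W/F, where Csf3r was at −0.11. On vehicle 6 of 6 were higher in W/F than in W/W (median 3.22, with 61.6% of all genes higher). In F/F 6 of 6 were higher than in W/W (median 3.40, with 69.3% of all genes higher). None was called between F/F and W/F (median 0.43, adjusted p = 0.12 to 0.87). Cyba had means of 217 and 311 TPM in W/F and F/F vehicle mice (0.52, adjusted p = 0.28), and Cybb 98.2 and 142 TPM (0.54, adjusted p = 0.37). Of 10 neutrophil recruitment genes 8 were tested. On vehicle 8 of 8 were higher in F/F than in W/W (69.3% of all genes), and 6 of 8 on rescaled TPM (5208 of 16638 genes). In W/F 7 of 8 were higher than in W/W (61.6% of all genes). Higher in F/F than in W/F was 1 of 8, the chemokine Cxcl5 (1.10, adjusted p = 0.00011), beside 19% of all genes. Cxcl1 had means of 110 TPM in W/F and 86.0 in F/F vehicle mice (−0.40, adjusted p = 0.76). Csf3, the ligand of Csf3r, was listed at 0 in all mice of 6 groups and reached at most 0.240 TPM.

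Of 5 granulopoiesis factors tested, 4 were higher in F/F and 3 in W/F than in W/W on vehicle, shares near those of all genes (69.3% and 61.6%). On rescaled TPM 3 were higher and 1 lower in each. Of all 16638 genes, 5208 were then higher and 4601 lower in F/F, and 4619 and 4211 in W/F. On neither scale was any of the 5 factors called between F/F and W/F (adjusted p = 0.079 to 0.82 on TPM). Spi1, which encodes PU.1, had means of 45.0 and 51.9 TPM in W/F and F/F vehicle mice (0.19, adjusted p = 0.70), and Cebpe was not called in F/F against W/F (−0.23, adjusted p = 0.44). Of 4 receptor genes for S100A8 and S100A9, 3 were higher in F/F and 4 in W/F than in W/W on vehicle (69.3% and 61.6% of all genes). Of these, 1, Ager, was higher in F/F than in W/F (0.53, adjusted p = 0.041), which was not called on rescaled TPM. Of 7 chitinase-like and alternative activation genes 4 were tested. Beside Chil3, Mrc1 was lower in F/F than in W/F (−0.61, adjusted p = 0.012), Chil1 was at −0.74 (adjusted p = 0.059) and Arg1 at −0.17 (adjusted p = 0.48).

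The 6 neutrophil markers, 4 of them members (Retnlg, Csf3r, S100a8 and S100a9), summed to 141 to 394 TPM in F/F vehicle, 87.7 to 158 in W/F vehicle and 4.18 to 10.2 in W/W vehicle mice. The F/F and W/F ranges overlapped, and 3 of 6 were called higher in F/F than in W/F (19% of all genes). The 5 macrophage markers summed to 1079 to 1442 TPM in F/F vehicle, 1073 to 1360 in W/F vehicle and 123 to 190 in W/W vehicle mice, with 5 of 5 higher in each mutant group than in W/W, and the F/F and W/F ranges overlapped. Of 5 monocyte markers 4 in F/F and 5 in W/F were higher than in W/W on vehicle. Beside the macrophage and monocyte counts, 69.3% of all genes were higher in F/F and 61.6% in W/F. Kupffer cell markers, Clec4f, Timd4, Vsig4, Cd5l and Marco, summed to 2.89 to 4.92 TPM in F/F vehicle, 291 to 419 in W/F vehicle and 177 to 218 in W/W vehicle mice. The lipid-associated macrophage list summed to 3623 to 4334 TPM in F/F vehicle and 1758 to 2042 in W/F vehicle mice.

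Other cell types also moved with genotype on vehicle. Hepatocyte markers summed to 32743 to 35855 TPM in F/F vehicle and 54738 to 62842 in W/F vehicle mice, with 3 of 6 lower in F/F, beside 383 of 16638 genes tested. Cholangiocyte markers summed to 121 to 153 TPM against 41.2 to 64.0, stellate cell markers to 750 to 912 against 459 to 612, platelet markers to 28.0 to 37.6 against 20.6 to 23.7, and proliferation genes to 21.3 to 38.0 against 13.7 to 20.2. Erythroid genes summed to 503 to 980 TPM in F/F vehicle and 199 to 404 in W/F vehicle mice, with 3 of 5 tested higher in F/F (19% of all genes), and B and plasma cell markers to 7.55 to 24.8 against 3.05 to 6.88. T cell markers summed to at most 9.01 TPM in any mouse, eosinophil markers to at most 1.64 and mast cell and basophil markers to at most 0.445. The part of these cells in the differences of the members was not tested.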

How the data were processed

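PolyA RNA of 36 mouse livers was sequenced, and the authors deposited 1 table of TPM (transcripts per 1000000, a unit corrected for gene length and library total), in which each library summed to 1000000. Per the submitters' processing notes the tools were Trimmomatic 0.36, STAR 2.5.2b and featureCounts of Subread 1.5.2, with builds GRCm38 and mm10. The annotation release and the strand setting are not given in the sources used here. Samples were grouped by genotype and treatment from the labels. The 10 member genes and all gene lists were chosen with earlier results of these data known. All 10 members, the correlates of Ngp, S100a8 and Chil3 within groups, and the 3 genes of a list with the highest mean TPM were named, besides any gene a sentence turns on.

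Values were analysed as log2(TPM + 1) with limma 3.58.1 in R 4.3.3, over the 16638 genes that reached 1 TPM in 4 or more libraries. The fit had 1 mean for each of 9 groups and 1 spread shared by all 36 libraries, and variances were moderated with a trend on expression. Tests of 20 contrasts were two-sided, and p-values were adjusted across all 16638 genes by the Benjamini-Hochberg method, with a threshold of 0.05. A fold change on this scale understates the change of a gene at low TPM. Nothing in the labels says what separates mice of a group beyond their number, so p-values measure the spread between these mice.

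TPM carry no read counts. Depth was recovered from the spacing of low TPM and exon lengths in GENCODE M21, the annotation that also gave the coordinates (GRCm38), and 93.69% to 95.61% of the values under 20 reads then lay within 0.1 of a whole read. Recovered reads serve to give limits of detection, where 3 reads in a library were taken as the floor, and these limits cover counting error only. Of 49315 rows, 48970 matched an M21 gene. The alternatives were a pseudocount of 0.1, a filter of 5 TPM in 4 libraries, no filter, TPM rescaled by the median ratio over 13950 genes, array quality weights, a block for the replicate number, only the groups compared, recovered reads with voom, and the omission of each library. Genes were matched by symbol in the table. The fit was tested on simulated data. Upstream sequences came from RefSeq (GRCm38.p6), where all 10 members matched.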

Additional observations from a re-analysis of the deposited data

Results flagged for a closer look

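In 11 of 58 sets of 4 mice tested, 1 mouse lay far from the other 3 by its gap over the whole range (Dixon's 95% limit). Chance gives about 1 in 20 for independent, normal values. These were TPM without a log, and sets of different genes share mice, so no excess over chance can be read from the count. In W/W on chow it was replicate 2, with 3.67 TPM of Ngp and 8.74 TPM of S100a8. In W/W on vehicle it was replicate 4, with 2.97 TPM of S100a8 and 3.24 TPM of Csf3r. In W/W on T0901317 it was replicate 2, with 1.46 TPM of Chil3. In W/F on vehicle it was replicate 3, with 7.61 TPM of Ngp and 47.4 TPM of S100a8. In W/F on T0901317 it was replicate 2, with 6.57 TPM of S100a8, 7.22 TPM of Csf3r and 4.11 TPM of Chil3. In F/F on T0901317 it was replicate 1, with 1.73 TPM of Camp.

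The response to the diet differed from that of W/W by a test of the difference itself (log2 scale). For F/F minus W/W the difference was 3.75 for Ngp, 3.10 for Camp, 2.74 for Ltf, 3.00 for S100a8, 3.35 for S100a9, 2.48 for Retnlg, 1.23 for Csf3r and 4.03 for Chil3. For W/F minus W/W it was 2.42 for Ngp, 1.66 for Camp, 0.99 for Ltf, 4.15 for S100a8, 4.56 for S100a9, 2.34 for Retnlg, 3.03 for Csf3r and 3.85 for Chil3. Both share the W/W mice. In F/F minus W/W the calls of S100a8, Retnlg and Csf3r were lost with voom (adjusted p = 0.17, 0.084 and 0.20).

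The response to T0901317 differed as well. For F/F minus W/W the difference was −2.68 for Ngp, −2.52 for Camp, −2.20 for Ltf, −2.91 for S100a8, −2.92 for S100a9, −2.08 for Retnlg and −3.35 for Chil3. With voom those of Ngp, Ltf, S100a8 and Retnlg were no longer called (adjusted p = 0.30, 0.18, 0.058 and 0.10). For W/F minus W/W it was −1.80 for Ngp, −1.49 for Camp, −3.75 for S100a8, −3.63 for S100a9, −1.97 for Retnlg, −2.44 for Csf3r and −3.76 for Chil3. For F/F minus W/F it was −1.03 for Camp, −1.49 for Ltf and 1.94 for Csf3r. With voom those of Camp and Ltf were no longer called (adjusted p = 0.54 and 0.89).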

How the results depend on the processing

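Of 180 member values, 117 were called, and 98 of these were called in the same direction in every alternative that was run. With a pseudocount of 0.1, 3 members were called for F/F against W/F on vehicle (6 with a pseudocount of 1) and 1 for the T0901317 response of F/F minus W/F (3). With voom on recovered reads, 5 were called for the diet response of F/F minus W/W (8) and 3 for the T0901317 response of F/F minus W/W (7). Camp in the T0901317 response of F/F minus W/F turned from −1.03 to 0.45 with the pseudocount of 0.1 (adjusted p = 0.709) and to 0.70 with voom (adjusted p = 0.544), and the cause was not tested. The counts under rescaled TPM, the 5 TPM filter, no filter, array weights and only the groups compared stayed within 1.5 times.

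Without each library in turn, the members called ranged from 4 to 7 for F/F against W/F on vehicle (4 without F/F vehicle replicate 2 or W/F vehicle replicate 1), from 5 to 8 on chow (5 without F/F chow replicate 4) and stayed at 8 on T0901317. Set against W/W, F/F had a range of 5 to 7 on chow, 8 to 8 on vehicle and 9 to 9 on T0901317, and W/F had 8 to 9 on vehicle and 0 to 0 on chow and T0901317. For diet it was 8 to 9 in F/F, 8 to 8 in W/F and 0 to 0 in W/W, and for T0901317 7 to 8 in F/F, 7 to 8 in W/F and 0 to 0 in W/W. For the differences in response it was 7 to 8 in all 4 against W/W and 3 to 4 in F/F minus W/F.

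Deviations of mice of the same number in different groups had a mean correlation of 0.016 (over 0.1 in 18 of 144 pairs). For different numbers it was −0.0054 (38 of 432 pairs). Replicate 1 had 29.0 to 35.6 M recovered reads in F/F chow, F/F T0901317, W/F vehicle, W/W chow and W/W T0901317. It had 20.7 to 24.9 M in the remaining groups. Whether the number marks shared handling was not tested, and with the replicate block 20 of 20 counts were equal. Depth limits Mpo, Camp, Ltf, Retnlg and Chil3 in W/W mice, where most libraries held 3 reads or fewer.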
